A study of Mus musculus with 9 samples.

Results

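Immediate early transcription factors are transcription factors whose genes are switched on within minutes of a stimulus, without the need for new protein. The set of 10 genes described here, Fos, Fosb, Jun, Junb, Egr1, Egr2, Egr3, Ier2, Atf3 and Nr4a1, was selected by name from the gene names on the array. Each of the 10 was represented by 1 probe, and 9 of the 10 were among the 16431 genes tested, since Egr3 did not pass the filter on dim probes. The tissue was the abdominal aorta of uMT mice on the C57BL/6 strain, which lack B cells, and all 9 samples carried this genotype, so the arrays hold no sample with B cells for comparison. In the uMT_sham group (n = 3) the aorta was bathed from outside with saline. In the uMT_Ca group (n = 3) it was bathed with CaCl2 at 0.5 M, a procedure used to provoke an abdominal aortic aneurysm, and tissue was taken 7 days later. The uMT_Ca+IgG group (n = 3) had the same CaCl2 treatment and sampling day and was also given pooled mouse IgG into the peritoneal cavity. The dose and timing of the IgG, the ages of the mice and the day on which sham tissue was taken are not given here. Nothing in the labels says whether the 3 samples of a group were separate mice or pools, so p-values reflect the scatter among these samples only, part of which may be technical.

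Proteins of the Fos and Jun families pair through leucine zippers to form the AP-1 factor, which binds the AP-1 site in genes of inflammation, matrix turnover and proliferation. The Egr proteins are zinc-finger factors that bind GC-rich sites, and Nr4a1 is an orphan nuclear receptor. Growth factors, cytokines, stretch and tissue handling act on these genes through MAP kinases, which activate ternary complex factors bound with serum response factor at CArG boxes, and through CREB bound at cAMP response elements. In the vessel wall, smooth muscle cells, endothelium, fibroblasts and infiltrating macrophages can all express them, and their transcripts are short-lived. All levels below are log2 probe signals relative to the 75th percentile of the array, so a difference of 1 unit is a 2-fold ratio of signal, and levels of different genes are not compared.

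Start sites of 7 of the 10 genes were taken from the RefSeq promoter table of build GRCm38.p6. Egr1, Egr3 and Ier2 were not searched, so the motif counts below say nothing about them. The stretches before the starts of 5 of the 7 are shown. They were chosen from those that hold letters that CREB, serum response factor or Egr proteins are known to bind. Atf3 holds such letters as well but is not shown. Each line gives the 130 bases before the start, 5′ to 3′ on the strand of the gene. Capitals mark matches to the cAMP response element half-site (TGACG, or CGTCA on the other strand), the Egr site GCGNGGGCG or its complement, the CArG box, and TATAA.
Fos, chr12:85473760-85473889, plus strand: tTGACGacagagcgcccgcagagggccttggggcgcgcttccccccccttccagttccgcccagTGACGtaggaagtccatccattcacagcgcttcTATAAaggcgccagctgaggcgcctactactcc
Fosb, chr7:19310046-19310175, minus strand: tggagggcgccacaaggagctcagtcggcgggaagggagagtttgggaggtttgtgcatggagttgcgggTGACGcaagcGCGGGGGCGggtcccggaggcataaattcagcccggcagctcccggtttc
Junb, chr8:84978749-84978878, minus strand: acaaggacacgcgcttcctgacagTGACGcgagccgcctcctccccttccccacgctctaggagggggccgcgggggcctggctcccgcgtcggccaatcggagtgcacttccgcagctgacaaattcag
Egr2, chr10:67537739-67537868, plus strand, the third of 5 starts listed: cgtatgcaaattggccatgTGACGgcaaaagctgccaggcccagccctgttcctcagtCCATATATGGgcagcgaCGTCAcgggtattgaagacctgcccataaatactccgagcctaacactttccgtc
Nr4a1, chr15:101266716-101266845, plus strand: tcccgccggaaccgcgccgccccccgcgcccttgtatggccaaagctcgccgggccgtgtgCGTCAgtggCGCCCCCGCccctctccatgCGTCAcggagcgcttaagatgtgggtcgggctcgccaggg
Fos held a half-site at 66 to 62 bases before the start and TATAA at 33 to 29. Egr2 held a CArG box, CCATATATGG, at 72 to 63 bases before the start shown. Fosb held an Egr site at 50 to 42 bases before the start and Nr4a1 held one on the other strand at 60 to 52. Over the 250 bases before each start and on both strands, the half-site was found in 6 of the 7 genes, all but Jun, and in 17.8% of all 32851 windows of that length. This half-site was added to the search after the sequences had been seen. The Egr site was found in 2 of the 7 and in 4.7% of all windows, the CArG box in 1 of the 7, Egr2, and in 1.47% of all windows, and TATAA in 2 of the 7 and in 22.8% of all windows. The full response element TGACGTCA, held by 1.55% of all windows, and the AP-1 site (TGACTCA or TGAGTCA), held by 4.46%, were found in 0 of the 7. The half-site lies within the full element, so windows with the element are counted under both. A member was counted if any of its starts held the match, and Egr2 had 5 starts, whereas the shares are of single windows. Sites further than 250 bases before a start were not searched, so a gene without a match here, such as Fos for the CArG box, may hold one elsewhere. These matches describe letters, and binding was not measured.

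In CaCl2-treated aorta, Fos, Junb, Egr1 and Egr2 were higher than in sham aorta, and the mean level of every tested member lay above its sham mean. Differences ran from 1.21 (Atf3) to 4.20 (Fos) on the log2 scale. Egr2 was the member whose call was kept under every setting tried. The level of these genes varied within both CaCl2 groups as well as between groups: uMT_Ca replicate 2 and uMT_Ca+IgG replicate 3 were the lowest arrays of their groups for all 9 tested members. In a bulk sample, fewer cells that express a gene and less RNA per cell cannot be told apart.

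Fos encodes the AP-1 subunit c-Fos, and its gene lies at chr12:85473890-85477274 (GRCm38.p6, plus strand). Its level was 2.26, 0.25 and 0.43 in the sham replicates 1 to 3, 6.31, 3.06 and 6.16 in the uMT_Ca replicates, and 6.27, 5.73 and 2.37 in the uMT_Ca+IgG replicates. All 6 CaCl2-treated arrays lay above all 3 sham arrays, but uMT_Ca replicate 2 and uMT_Ca+IgG replicate 3 lay closer to the highest sham array than to the other arrays of their own groups. The Fos probe was printed at 10 spots on each array. The SD between the spots ran from 0.060 to 0.115 log2 units over the arrays. This was far below the gaps of uMT_Ca replicate 2 and uMT_Ca+IgG replicate 3 from the other arrays of their groups. Fos was higher in uMT_Ca than in sham by 4.20 ± 1.20 (SE, n = 3 per group), an 18.4-fold difference with an adjusted p of 0.028 (limma with Benjamini-Hochberg adjustment).

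Fosb encodes a second Fos family subunit of AP-1. Its level was 0.31, 0.13 and 0.42 in sham, 5.30, 0.80 and 5.69 in uMT_Ca, and 5.01, 4.43 and 0.43 in uMT_Ca+IgG. Both low arrays of the treated groups were near the sham level, the uMT_Ca+IgG one by 0.01 above the highest sham array, while the other 4 treated arrays were at least 4 units higher than any sham array. The difference of uMT_Ca from sham was 3.64 ± 1.48 (SE, n = 3 per group), with an adjusted p of 0.084 (limma), and did not pass the threshold of 0.05.

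Junb encodes an AP-1 subunit of the Jun family that can restrain c-Jun, and its gene lies at chr8:84976909-84978748 (GRCm38.p6, minus strand). Its level was -1.31, -3.03 and -2.91 in sham, 1.62, -0.62 and 1.17 in uMT_Ca, and 1.38, 0.82 and -1.24 in uMT_Ca+IgG. The treated and sham arrays did not overlap, although uMT_Ca+IgG replicate 3 and sham replicate 1 were nearly level. Junb was higher in uMT_Ca than in sham by 3.14 ± 0.83 (SE, n = 3 per group), an 8.84-fold difference with an adjusted p of 0.020 (limma).

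Jun encodes c-Jun, the main partner of Fos proteins in AP-1. Its level was 5.16, 4.88 and 4.88 in sham, 6.94, 4.87 and 6.94 in uMT_Ca, and 7.10, 6.39 and 4.76 in uMT_Ca+IgG. The low array of each treated group lay just below the sham range. The difference of uMT_Ca from sham was 1.28 ± 0.69 (SE, n = 3 per group), with an adjusted p of 0.17 (limma), and the groups overlapped.

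Egr1 encodes a zinc-finger factor that responds to growth factors and mechanical stress in vessel walls. Its level was 3.60, 2.69 and 2.63 in sham, 6.13, 4.34 and 6.15 in uMT_Ca, and 6.10, 5.58 and 3.17 in uMT_Ca+IgG. All uMT_Ca arrays lay above all sham arrays, whereas uMT_Ca+IgG replicate 3 lay below the highest sham array. Egr1 was higher in uMT_Ca than in sham by 2.56 ± 0.78 (SE, n = 3 per group), a 5.90-fold difference with an adjusted p of 0.035 (limma).

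Egr2 encodes a related factor known from myelinating Schwann cells and from macrophages and lymphocytes, and its gene lies at chr10:67534469-67542188 (GRCm38.p6, plus strand). Its level was -0.48, -0.13 and -0.79 in sham, 2.22, 1.71 and 2.60 in uMT_Ca, and 2.41, 1.50 and 0.68 in uMT_Ca+IgG. The treated arrays lay above the sham arrays without overlap, and the SD within uMT_Ca was 0.45, smaller than that of the other 8 tested members there. Egr2 was higher in uMT_Ca than in sham by 2.64 ± 0.42 (SE, n = 3 per group), a 6.24-fold difference with an adjusted p of 0.0028 (limma). Since Egr2 is also a Schwann cell gene, the nerve and Schwann cell markers are given beside it: their summed log2 level was 1.60 to 1.70 in sham, 2.70 to 2.97 in uMT_Ca and 2.76 to 2.86 in uMT_Ca+IgG, from 3 tested markers. In uMT_Ca against sham 2 of the 3 were higher and 1, Th, a gene of sympathetic nerves, was lower (-0.95 ± 0.27 SE, adjusted p = 0.025, limma), and their part in the result was not tested.

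Egr3 encodes the third Egr factor measured. Its probe was well above background on 1 of the 9 arrays, uMT_Ca replicate 1, with levels of -6.39, -6.23 and -5.60 in sham, -5.01, -7.23 and -5.46 in uMT_Ca, and -5.22, -6.17 and -6.31 in uMT_Ca+IgG. The groups overlapped, the gene was not tested, and no fold is given for it because the uMT_Ca mean lay below the floor set by the dimmest detected probes.

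Atf3 encodes a stress-induced factor of the ATF/CREB family that pairs with Jun proteins. Its level was 2.26, 2.71 and 1.33 in sham, 3.64, 2.67 and 3.61 in uMT_Ca, and 3.64, 2.63 and 1.19 in uMT_Ca+IgG. The groups overlapped, and the difference of uMT_Ca from sham, 1.21 ± 0.62 (SE, n = 3 per group), had an adjusted p of 0.15 (limma). Ier2 encodes a small nuclear regulator of the immediate early response. Its level was 0.08, -0.86 and -1.35 in sham, 2.26, 0.03 and 1.75 in uMT_Ca, and 2.15, 1.45 and -0.74 in uMT_Ca+IgG. Both low treated arrays lay within the sham range, and the difference of uMT_Ca from sham, 2.06 ± 0.82 (SE, n = 3 per group), had an adjusted p of 0.080 (limma). Nr4a1, also called Nur77, encodes a nuclear receptor that dampens inflammatory gene expression in macrophages and vascular cells. Its level was 4.60, 3.77 and 3.99 in sham, 7.54, 5.73 and 7.34 in uMT_Ca, and 7.41, 7.04 and 3.17 in uMT_Ca+IgG. All uMT_Ca arrays lay above sham, but uMT_Ca+IgG replicate 3 was the lowest of the 9 arrays. The difference of uMT_Ca from sham was 2.75 ± 1.04 (SE, n = 3 per group), with an adjusted p of 0.068 (limma).

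**Figure D1:**
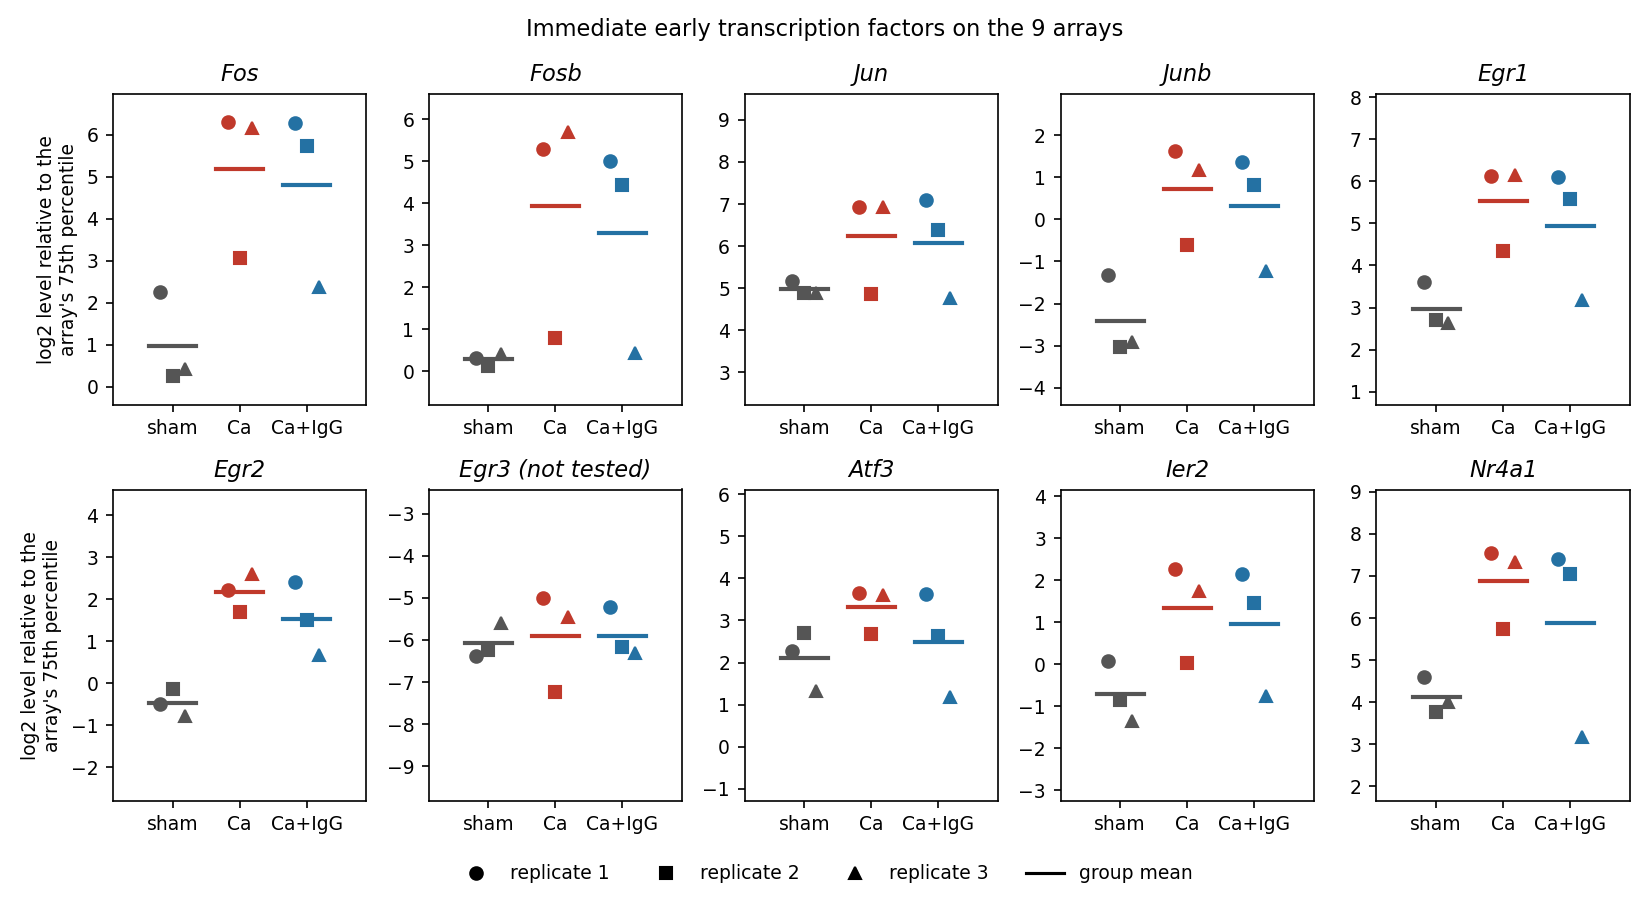
Log2 level relative to the array's 75th percentile (y axis, each panel spanning the same number of log2 units) of the 10 genes on the 3 arrays of each group (x axis); symbols mark replicates 1 to 3 and lines the group means. The square of the Ca group (replicate 2) and the triangle of the Ca+IgG group (replicate 3) are the lowest points of their groups in the 9 tested genes.

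Set against all genes, 4 of the 9 tested members passed the test as higher in uMT_Ca than in sham and 0 as lower, while 17.4% of the 16431 tested genes were called higher, 19.1% lower and 36.5% in either direction. The median difference of the 9 was 2.64, against -0.08 for all tested genes. For 6 of the 9 all uMT_Ca arrays lay above all sham arrays, which held for 24.7% of tested genes. In uMT_Ca+IgG against sham, 3 of the 9, Fos, Junb and Egr2, were called higher and 0 lower, against 14.8% of genes called higher, 14.2% lower and 29% in either direction. For 4 of the 9, Fos, Fosb, Junb and Egr2, the uMT_Ca+IgG arrays lay above all sham arrays, against 20.4% of genes. The differences there were 3.81 ± 1.20 for Fos (SE, adjusted p = 0.045), 2.74 ± 0.83 for Junb (adjusted p = 0.039) and 2.00 ± 0.42 for Egr2 (adjusted p = 0.0099), all by limma with n = 3 per group. Both comparisons use the same sham arrays.

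These calls depend on the arrays used and on the array layout. All arrays were on 1 slide except sham replicate 3, and without that array, which keeps the comparison within 1 slide, 1 of the 9, Egr2, was called higher in uMT_Ca (adjusted p = 0.013, against 13.1% of genes called higher) and 1, Egr2, in uMT_Ca+IgG (adjusted p = 0.038, against 11.1% of genes). All 3 uMT_Ca arrays lay in row 1 of the slide and 2 of the 3 sham arrays in row 2; with the row as a block, Egr2 was again the only call, at 2.36 with an adjusted p of 0.021 in uMT_Ca (11.3% of genes called higher) and at 2.00 with an adjusted p of 0.014 in uMT_Ca+IgG (13.7% of genes). With the row as a block, Fos had an adjusted p of 0.13, Junb 0.097 and Egr1 0.16 in uMT_Ca against sham, and Fos 0.062 and Junb 0.055 in uMT_Ca+IgG against sham. The only sham array in row 1 was replicate 3, which lay on the other slide. Without it, uMT_Ca arrays in row 1 were set against sham arrays in row 2, and the row block did not adjust for the slide. For uMT_Ca against sham, neither fit could tell CaCl2 apart from slide and row together. uMT_Ca+IgG replicates 2 and 3 shared slide 1 and row 2 with sham replicates 1 and 2. Egr2 was 1.50 and 0.68 there against -0.48 and -0.13, and Fos 5.73 and 2.37 against 2.26 and 0.25. On these arrays Fosb and Junb also lay above sham, whereas Jun, Egr1, Ier2, Atf3 and Nr4a1 overlapped with it. This subset of arrays was not tested. Egr2 was also the only member called in uMT_Ca against sham when sham replicate 2, uMT_Ca replicate 1 or uMT_Ca replicate 3 was left out, with adjusted p-values of 0.0079, 0.013 and 0.013. Without sham replicate 1, Egr1 was no longer called there. For uMT_Ca+IgG against sham, Egr2 was the only member called when sham replicate 2, uMT_Ca replicate 3, uMT_Ca+IgG replicate 1 or uMT_Ca+IgG replicate 2 was left out, and Junb and Egr2 were called when sham replicate 1 or uMT_Ca replicate 1 was. Calls among all genes, in either direction, also moved over the fits with 1 array left out. They ran from 3896 to 7398 in uMT_Ca against sham, beside 5995 in the main fit. In uMT_Ca+IgG against sham they ran from 3016 to 6651, beside 4761. Whether the members lost calls more often than other genes was not tested.

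**Figure D2:**
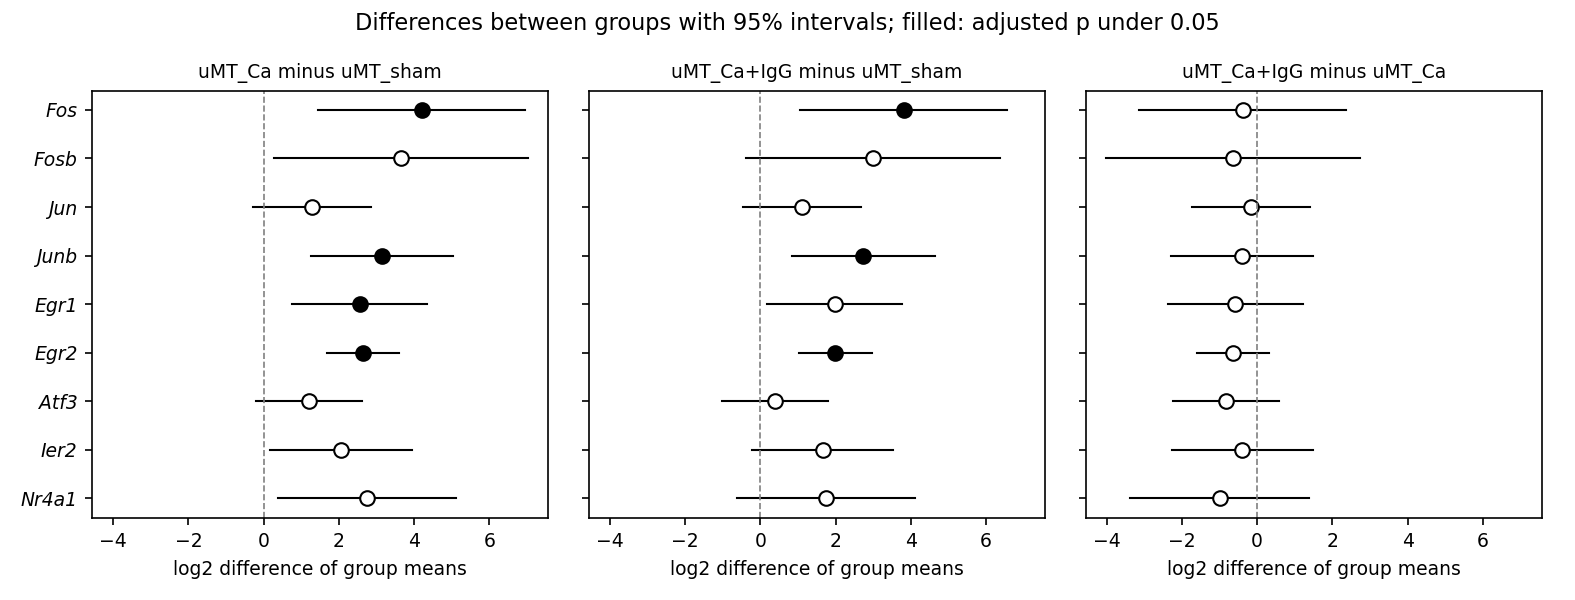
Difference of group means on the log2 scale (x axis) for the 9 tested genes (y axis) in 3 comparisons, with 95% intervals as lines; filled points had an adjusted p under 0.05 (limma, n = 3 per group). Egr2 has the narrowest interval, and in the right panel all 9 points lie left of 0 with intervals that cross 0.

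Adding IgG to the CaCl2 treatment gave 0 calls among the 9 members, as among all genes, where 0% were called by limma in either direction and 241 of 16431 had an unadjusted p under 0.05. For 0 of the 9 did the arrays of uMT_Ca and uMT_Ca+IgG separate, against 5.02% of genes. The 9 differences of uMT_Ca+IgG from uMT_Ca were all below 0, from -0.17 (Jun) to -0.997 (Nr4a1). Their 95% intervals were wide: -3.14 to 2.37 for Fos, -4.01 to 2.74 for Fosb, -3.37 to 1.38 for Nr4a1 and -1.61 to 0.32 for Egr2, the narrowest. A rise or fall of Fos severalfold with IgG would lie within its interval.

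The sign of these differences changed with the arrays used. Without uMT_Ca replicate 1 the differences of Fos (0.18), Fosb, Jun, Junb and Ier2 turned positive, and those of Fos, Fosb and Jun also did so without uMT_Ca replicate 3 (Fos 0.11) or with the row as a block (Fos 0.081). Without uMT_Ca+IgG replicate 3, 7 of the 9 differences of uMT_Ca+IgG from uMT_Ca were above 0, among them Fos at 0.82 ± 1.01, Fosb at 0.79 ± 1.28 and Nr4a1 at 0.35 ± 0.53 (SE), and those of Egr2 (-0.22 ± 0.35) and Atf3 (-0.18 ± 0.49) were below 0. The comparison again gave 0 calls among members and among all genes, 256 of which had an unadjusted p under 0.05. uMT_Ca+IgG replicate 3 was the lowest array of its group for every tested member, so leaving it out had to raise their group means. In uMT_Ca+IgG against sham, leaving out that array raised the members called higher from 3 to 8 of the 9, all but Atf3, against 18.4% of genes. Fos then differed by 5.02 ± 1.01 (SE, adjusted p = 0.0070), Nr4a1 by 3.10 ± 0.53 (adjusted p = 0.0035), Egr1 by 2.86 ± 0.57 (adjusted p = 0.0066), Fosb by 4.44 ± 1.28 (adjusted p = 0.028) and Jun by 1.77 ± 0.60 (adjusted p = 0.047), all by limma with n = 2 against n = 3. The estimate of spread is shared by the groups, so leaving out that array also raised the members called in uMT_Ca against sham from 4 to 7 of the 9, adding Fosb, Ier2 and Nr4a1, against 19.9% of genes, with the same differences as before.

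**Figure D3:**
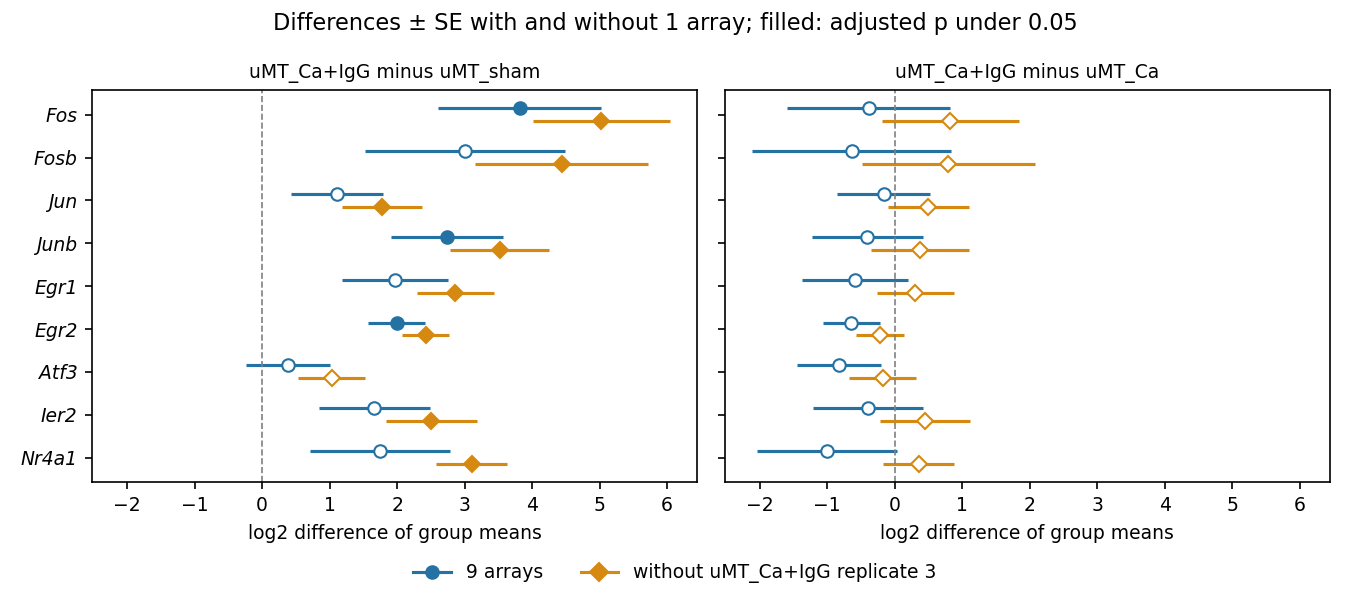
Difference of group means ± SE on the log2 scale (x axis) for the 9 tested genes (y axis), with all 9 arrays (circles) and without uMT_Ca+IgG replicate 3 (diamonds); filled symbols had an adjusted p under 0.05 (limma). In the left panel 3 circles and 8 diamonds are filled, and in the right panel 7 diamonds lie right of 0 where all circles lie left of it.

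A second array stood low in the same genes. uMT_Ca replicate 2 was the lowest of its group in 9 of 9 members, against 37.6% of all tested genes, and uMT_Ca+IgG replicate 3 in 9 of 9, against 48.1%. The median gap of the members from the mean of the other arrays of the group was -1.98 for uMT_Ca replicate 2 and -2.54 for uMT_Ca+IgG replicate 3, whereas the median over all genes was -0.04 and -0.09. Over all genes the former correlated with the other arrays of its group at a mean r of 0.984, close to the 0.982 to 0.987 of the other uMT_Ca arrays, and the latter at 0.959, below the 0.973 and 0.975 of the other uMT_Ca+IgG arrays. Leaving out uMT_Ca replicate 2, singled out for its low levels in the members, had to raise their uMT_Ca means. The calls then gained are therefore no independent support, and the share of all genes is not a like yardstick. Without uMT_Ca replicate 2, 7 of the 9 were called higher in uMT_Ca than in sham, against 15.5% of genes: Fos, Fosb, Jun, Junb, Egr1, Egr2 and Ier2, with Fos at 5.26 (adjusted p = 0.015, limma, n = 2 against n = 3). The uMT_Ca+IgG calls against sham were then the same 3, against 13.7% of genes.

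Marker genes of other cells also varied among the arrays of a group, not always along with these 2 arrays. The summed log2 level of 3 tested adipocyte markers, of 5 listed, was 3.64 in uMT_Ca replicate 2 and 1.23 and 1.32 in the other uMT_Ca arrays, but 0.23 in uMT_Ca+IgG replicate 3 against 0.32 and 2.60 in the other uMT_Ca+IgG arrays. The sum of 7 smooth muscle markers was 10.33 in uMT_Ca replicate 2 against 9.78 and 9.65, and 10.23 in uMT_Ca+IgG replicate 3 against 9.78 and 9.82. Star, the 1 tested adrenal cortex marker of 4 listed, was -3.55 in uMT_Ca replicate 2 against -1.87 and -1.58. In uMT_Ca+IgG replicate 3 it was -2.80 against -1.79 and -1.66. Its mean was -4.17 in sham and -2.34 in uMT_Ca. The other listed adrenal cortex markers did not pass the filter on dim probes, and their dim means went the other way. In sham and uMT_Ca these were -4.93 and -7.20 for Cyp11a1, -4.50 and -6.17 for Cyp11b1, and -5.67 and -7.16 for Hsd3b1. Star alone is thus no measure of adrenal tissue. Among 7 neutrophil markers, Csf3r, which makes up most of their sum, was 8.36 in uMT_Ca+IgG replicate 3 against 6.99 and 7.07 in the other arrays of that group, whereas Ly6g was lowest there, at 1.26 against 1.58 and 2.07. Between groups, the smooth muscle markers, which the labelled tissue should hold, were all 7 lower in uMT_Ca than in sham, with sums of 11.33 to 11.53 in sham and 9.65 to 10.33 in uMT_Ca. Of 8 monocyte and macrophage markers, 6 were higher and 1 lower, with a median difference of 2.34. The 1 lower was Itgam (-1.35 ± 0.39 SE, adjusted p = 0.029, limma), the largest term of that list's sum in sham; the sum ran from 7.82 to 7.83 in sham and from 7.91 to 8.26 in uMT_Ca. Of the 7 neutrophil markers 4 were higher and 0 lower, S100a9 by 5.43 ± 0.67 and S100a8 by 4.54 ± 0.39, although their sum was 7.76 to 8.13 in sham and 7.10 to 7.34 in uMT_Ca. Of 6 T cell markers 4 were higher, Cd3d by 4.53 ± 0.51, and 1 was lower, with sums of 2.23 to 2.77 in sham and 3.07 to 3.85 in uMT_Ca. The part of any of these cells in the members' values was not tested.

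Genes related to the members by role were described from 5 other lists, and the counts are to be read against the 17.4% of all tested genes called higher and 19.1% called lower in uMT_Ca. Of 7 tested partners of AP-1, Batf (2.36 ± 0.28 SE, adjusted p = 0.00093) and Batf3 (2.08 ± 0.36, adjusted p = 0.0040), lymphoid and myeloid AP-1 factors, were higher in uMT_Ca than in sham, and Mafk, a small Maf protein, was lower (-0.78 ± 0.14, adjusted p = 0.0045, all by limma). The list's median difference was -0.08 and that of all genes was also -0.08. Fosl2 and Jund, closer relatives of Fos and Jun, had differences of -0.19 ± 0.25 and -0.64 ± 0.29 that did not pass the test. Fosl1, a Fos relative, was not tested.

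Of 10 tested other early transcription factors and regulators, 2 were higher in uMT_Ca than in sham, 0 were lower, a share of higher calls near the 17.4% of all genes, and all 10 differences were above 0 with a median of 0.71. Myc, the growth regulator, differed by 1.78 ± 0.29 (SE, adjusted p = 0.0029) and Ier3, a survival factor, by 2.84 ± 0.76 (adjusted p = 0.022, limma). Nr4a2, the nearest relative of Nr4a1 on the list, differed by 1.82 ± 0.69 without passing the test (adjusted p = 0.069). uMT_Ca replicate 2 was the lowest of its group in 10 of the 10 and uMT_Ca+IgG replicate 3 in 9 of the 10.

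Of 21 tested feedback and effector genes, 8 were higher in uMT_Ca than in sham and 2 were lower, with a median difference of 1.03. Socs3, an inhibitor of cytokine receptor signalling, had levels of -0.12, -0.59 and -0.22 in sham, 5.10, 2.74 and 4.91 in uMT_Ca, and 4.78, 4.52 and 2.27 in uMT_Ca+IgG. Its array order within both treated groups was that of Fos, but the treated arrays stood clear of sham, and it differed from sham by 4.56 ± 0.77 (SE, adjusted p = 0.0035, limma). Dusp2, a phosphatase that turns off MAP kinases, differed by 3.82 ± 0.45 (adjusted p = 0.00090), Tnfaip3, an inhibitor of NF-kappaB, by 2.50 ± 0.34 (adjusted p = 0.0015), and Rhob, a small GTPase, by -0.82 ± 0.14 (adjusted p = 0.0034). Dusp1 and Zfp36, which end MAP kinase signalling and destabilise cytokine transcripts, had differences of 1.00 ± 0.54 and 1.54 ± 0.76 that did not pass the test. Against sham, uMT_Ca+IgG had 7 of them higher and 2 lower. The array pattern recurred: each of uMT_Ca replicate 2 and uMT_Ca+IgG replicate 3 was the lowest of its group in 19 of the 21.

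The genes listed as upstream kinases, promoter factors and corepressors were called about as often as genes at large. The activity of their proteins was not measured. Of 15 tested kinases, promoter factors and corepressors, 2 were higher in uMT_Ca than in sham and 3 were lower, against 17.4% and 19.1% of all tested genes, with a median difference of -0.01. Srf, the serum response factor that binds CArG boxes such as the one printed for Egr2, had levels of 2.61, 2.72 and 2.60 in sham, 1.62, 1.86 and 1.64 in uMT_Ca, and 1.42, 1.53 and 1.24 in uMT_Ca+IgG. It was lower in uMT_Ca than in sham by 0.94 on the log2 scale (difference -0.94 ± 0.13 SE, adjusted p = 0.0017, limma). Elk3, a ternary complex factor that partners Srf, had levels of 2.16, 2.11 and 2.25 in sham, 3.33, 3.29 and 3.52 in uMT_Ca, and 3.36, 3.59 and 2.98 in uMT_Ca+IgG, and was higher by 1.20 ± 0.17 (adjusted p = 0.0017). Mapk9, a JNK kinase, was lower (-0.53 ± 0.13, adjusted p = 0.015) and Mrtfa, a coactivator of Srf, was higher (0.72 ± 0.16, adjusted p = 0.011). Mapk8, the other JNK gene listed, was lower as well (-0.57 ± 0.16, adjusted p = 0.025). uMT_Ca replicate 2 was the lowest of its group in 5 of the 15 and uMT_Ca+IgG replicate 3 in 7 of the 15, shares near those of all genes.

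Heat shock genes, which also respond to handling and stress of tissue, made up the last list. Of 6 tested, 4 were lower in uMT_Ca than in sham and 0 were higher, with a median of -0.89. Hspa1a, an inducible chaperone with a near-identical copy in Hspa1b, had levels of 2.92, 3.14 and 2.32 in sham, 1.17, 0.21 and 0.34 in uMT_Ca, and 1.07, 0.53 and -0.70 in uMT_Ca+IgG, and differed between uMT_Ca and sham by -2.22 ± 0.46 (SE, adjusted p = 0.0081, limma). Hspb1 differed by -1.21 ± 0.40 (adjusted p = 0.043), Hspa8 by -0.57 ± 0.19 (adjusted p = 0.045) and Hsph1 by -1.48 ± 0.50 (adjusted p = 0.047). Against sham, 3 of the 6 were lower and 0 higher in uMT_Ca+IgG. uMT_Ca replicate 2 was the lowest of its group in 5 of the 6, against 37.6% of all tested genes. For uMT_Ca+IgG replicate 3 this held in 2 of the 6, against 48.1%. The part of handling or stress in the members' values was not tested.

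**Figure D4:**
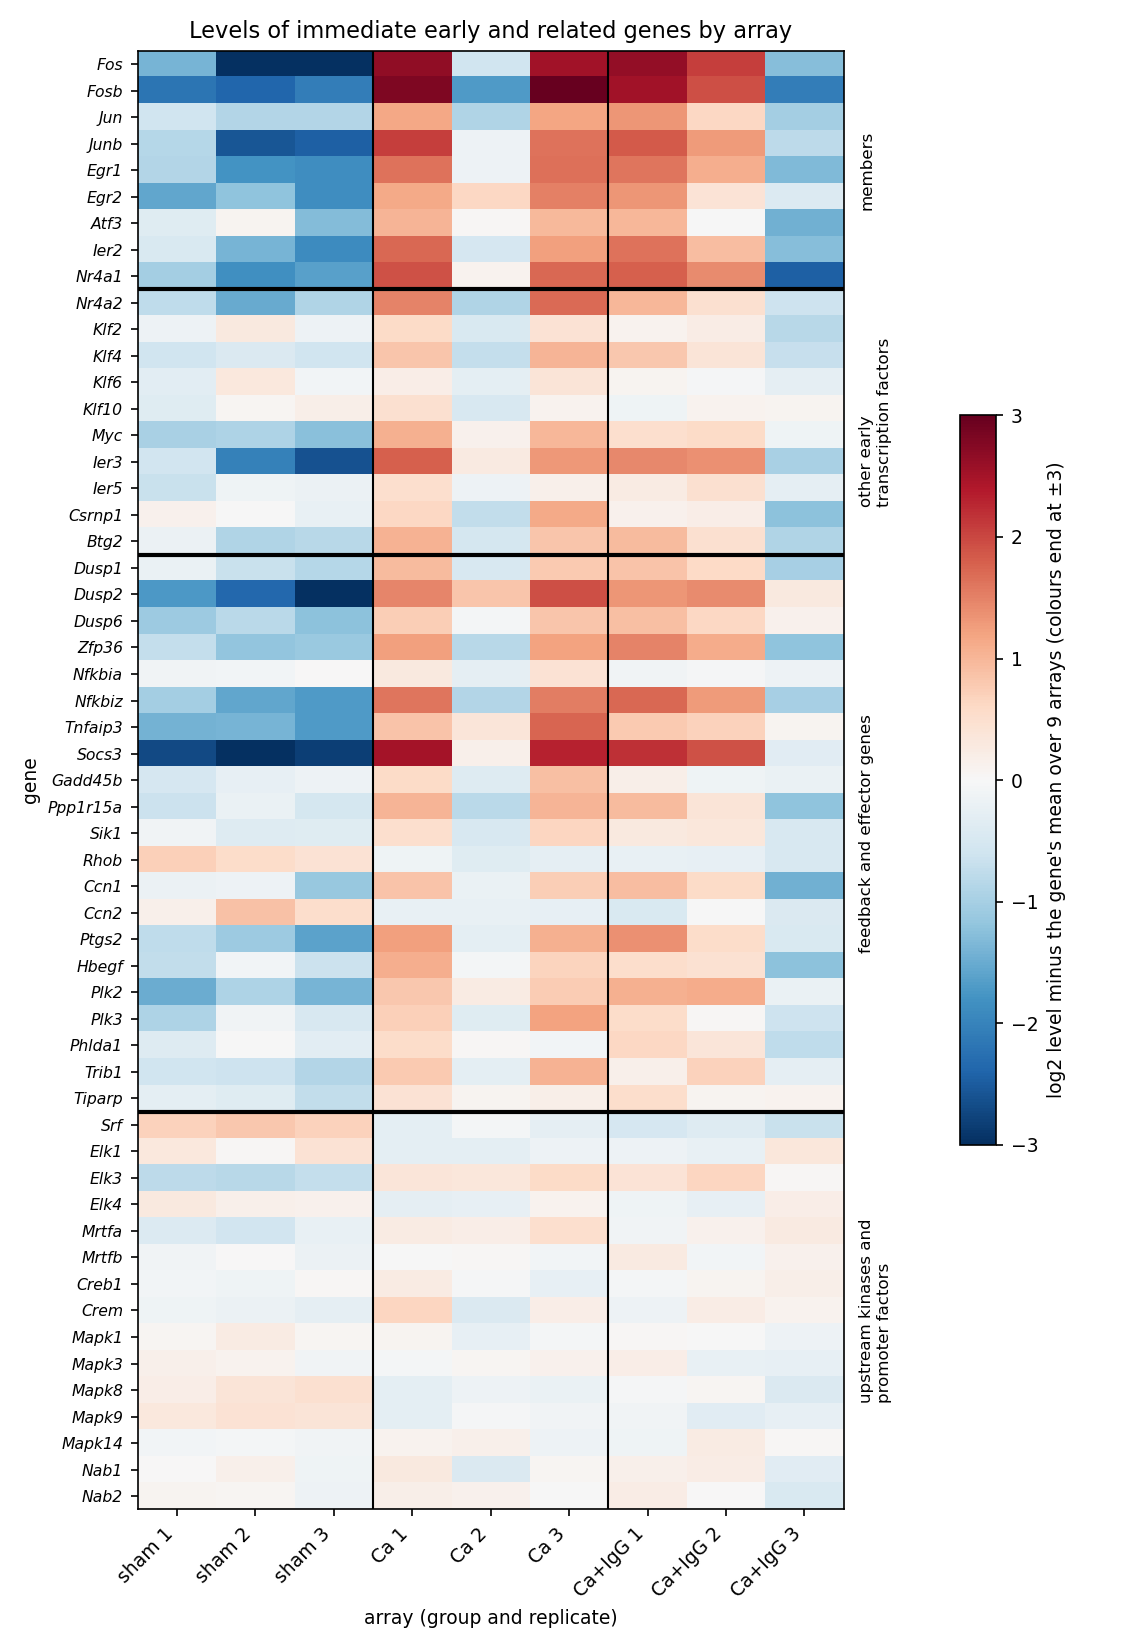
Log2 level minus the gene's mean over the 9 arrays (colour, ending at 3 in each direction) for the members and the tested genes of 3 related lists (y axis) on each array (x axis, group and replicate). The columns of Ca replicate 2 and Ca+IgG replicate 3 are paler or bluer than those of the other treated arrays in the members and in most of the early and feedback genes, and the colours of the upstream genes vary little within a group.

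The genes whose pattern over the 9 arrays was most like that of Fos were found by the mean absolute difference of gene-centred log2 levels. The nearest genes outside the members were Cxcl1, a neutrophil-attracting chemokine (0.35), Socs3 (0.51), Rasd1, a small GTPase (0.72), Dpt, which encodes the matrix protein dermatopontin (0.73), and Lmnb1, a nuclear lamin (0.73). Among all tested genes, Fosb ranked 3 (0.66), Junb 4 (0.68), Egr1 15 (0.87), Nr4a1 27 (0.93) and Ier2 35 (0.97), while Egr2 ranked 222 (1.25), Jun 289 (1.31) and Atf3 950 (1.57). The measure takes in the size of a change as well as its shape. Cxcl1 had levels of -0.49, -2.36 and -1.49 in sham, 3.34, 1.30 and 3.43 in uMT_Ca, and 3.51, 2.69 and 0.01 in uMT_Ca+IgG, low on the same treated arrays as Fos. Dpt had levels of 4.55, 4.15 and 3.91 in uMT_Ca and of 4.62, 4.14 and 0.25 in uMT_Ca+IgG, so it was low on uMT_Ca+IgG replicate 3 without being low on uMT_Ca replicate 2.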

How the data were processed

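Total RNA from 9 aorta samples was hybridised to 1-colour Agilent arrays, 1 per sample. The authors' deposited scanner files hold background-subtracted spot intensity on a linear scale, made with Feature Extraction 10.7.1.1 per the file headers (9.5.1.1 per the submitters' processing notes), with other columns of deposited flags. The authors' deposited series table, intensity values with a shared median of 29.7 in all 9 columns, served as an alternative; no source used here gives its normalization. Control spots and outliers were dropped, saturated spots kept and spots of a probe averaged. From each log2 signal the array's 75th percentile was subtracted. A probe was kept (32168 of 55681) if all arrays of some group had it well above background, and a gene was its brightest kept probe. Symbols came from RefSeq genes of GRCm38.p6, by accession for 27235 probes, by symbol for 4146 and from the file for 1409; 22891 had none. The share of probes well above background was 54.9% to 59.9% per array, and the number of arrays limits the precision. Groups were read from the titles. The 9 arrays entered 1 limma fit (limma 3.58.1, R 4.3.3, data.table package version 1.17.8) with 3 group means and 6 residual degrees of freedom. The Benjamini-Hochberg adjustment ran over 16431 genes, with a threshold of 0.05. The fit was tested on simulated data. The members and lists were chosen with earlier results of these data known. All 10 members are named, up to 4 called genes of each related list by smallest p, and the 5 genes nearest to Fos; Fosl1, Fosl2, Jund, Nr4a2, Dusp1, Zfp36, Mapk8 and the marker genes given by name were added after their values were seen. Alternatives covered scaling, background correction, filter, probe choice, blocks, the samples fitted and each array left out.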

Additional observations from a re-analysis of the deposited data

How the results depend on the processing

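Over 20 alternatives, the differences of all 9 tested members between uMT_Ca and sham were above 0, and Egr2 was called in all 20 in both treated groups against sham. The members called in uMT_Ca against sham were 4, and 7 with median scaling, 7 with the 2 compared groups fitted alone, 5 with normexp background correction, and 1 with the row as a block. In uMT_Ca+IgG against sham they were 3, and 1 without a filter on dim probes, 1 with the row as a block and 1 with the compared groups fitted alone. With 1 array left out they ranged from 1 to 7 and from 1 to 8. With the row as a block, 11.3% of genes were called higher in uMT_Ca and 13.7% in uMT_Ca+IgG, each against sham. For most other settings that share is not given here, so the member counts alone do not show a change particular to the members. The calls among all genes, in either direction, moved as well. In uMT_Ca against sham they were 5995 in the main fit. They ran from 3377 to 8499 over the other settings and from 3896 to 7398 with 1 array left out. In uMT_Ca+IgG against sham they were 4761, and ran from 2986 to 4961 and from 3016 to 6651. In uMT_Ca+IgG against uMT_Ca the members called were 0 throughout, and 2 of all genes were called without uMT_Ca+IgG replicate 1. With the row as a block that difference turned positive for Fos (0.081), Fosb (0.29) and Jun (0.30). With 1 array left out it ran from -1.44 to 0.82 for Fos, -2.20 to 0.79 for Fosb, -0.86 to 0.50 for Jun, -1.08 to 0.37 for Junb, -1.19 to 0.30 for Egr1, -1.06 to 0.45 for Ier2 and -1.76 to 0.35 for Nr4a1. Atf3 in uMT_Ca+IgG against sham ran from -0.19 to 1.03. The cause of these changes was not tested. Median scaling moved the median of all genes in uMT_Ca against sham from -0.08 to 0.39, and of the called genes 77.2% were then higher, in place of 47.7%. The replicate block left the calls at 4 and 3, and the replicate numbers did not pair the samples: same-numbered deviations correlated at -0.20 to 0.22.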
